A study of Homo sapiens with 21 samples.

Results

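The genes described here encode the nuclear subunits of the respiratory chain and of ATP synthase, measured by RNA-seq in MDA-MB-453 cells, a human breast cancer cell line. They were chosen by name and level. Protein-coding genes named NDUFA, NDUFB, NDUFC, NDUFS or NDUFV with a number (complex I), SDHA to SDHD (complex II), UQCR (complex III), COX4I, COX5, COX6, COX7 or COX8 (complex IV) or ATP5 (complex V) were taken where the mean FPKM over all libraries was at least 1. FPKM, fragments per kilobase of gene scaled to a library size, is a level already divided by gene length. The size behind these values was not the total of fragments but followed median-ratio factors of the fragments, to within -0.024 to 0.019 on the log2 scale. Of the 58735 genes in the deposited table, 90 matched by name and 79 passed, 36 in complex I, 4 in complex II, 9 in complex III, 11 in complex IV and 19 in complex V.

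The 21 libraries fell into 7 groups of 3. Control cells received none of the compounds. The others received 10 mM calcium, 10 µM cadmium, 5 µM GSK4716 (an ESRRB agonist), 10 µM diethylstilbestrol (DES, a synthetic estrogen used in the study as an ESRRB antagonist), DES with calcium or DES with cadmium, all for 24 h and without genetic change, and in the combinations DES was added 3 h before the metal. Serum was left out for calcium and GSK4716, cadmium was given with 1% charcoal-stripped serum, there was 1 control group, and the medium of the control and DES-only wells is not given in the sources used here, so that an effect of the medium and of the treatment cannot be told apart. GSK4716 and DES were given in ethanol, and the sources used here do not say whether the control wells received it. An effect of ethanol therefore cannot be told apart from one of DES or GSK4716. Nothing in the labels says that the libraries of a group came from separate cultures. The p-values thus measure only the spread between these libraries, which may be technical.

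The respiratory chain sits in the inner mitochondrial membrane. Complex I (NADH dehydrogenase) and complex II (succinate dehydrogenase) pass electrons through ubiquinone to complex III (the cytochrome bc1 complex) and on to complex IV (cytochrome c oxidase), and the proton gradient that complexes I, III and IV build drives ATP synthase, complex V. Most subunits are encoded in the nucleus and imported, a small set in complexes I, III, IV and V is encoded in mitochondrial DNA, and the nuclear genes are known targets of the transcription factors NRF1, GABPA and YY1 and of the estrogen-related receptors, the family to which ESRRB belongs.

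Promoters of members that were higher with DES are shown here because they carry the binding motif of the estrogen-related receptors (ERRE) or of another of those factors. Each runs from 165 bases before to 20 bases after the RefSeq start site of GRCh38.p14, on the gene's own strand, with matches in capitals. The NDUFB4 stretch lies on the plus strand at chr3:120596171-120596356 and holds the NRF1 core and, nearer to the start site, the ERRE. The SDHD stretch, chr11:112086708-112086893 on the plus strand, holds the NRF1 core and an ERRE on the opposite strand just after the start site. The ATP5ME stretch (chr4:674256-674441, minus strand) and the COX5B stretch (chr2:97645897-97646082, plus strand) each hold the NRF1 core, and the NDUFA13 stretch (chr19:19516060-19516245, plus strand) holds the ETS motif of GABPA.
NDUFB4: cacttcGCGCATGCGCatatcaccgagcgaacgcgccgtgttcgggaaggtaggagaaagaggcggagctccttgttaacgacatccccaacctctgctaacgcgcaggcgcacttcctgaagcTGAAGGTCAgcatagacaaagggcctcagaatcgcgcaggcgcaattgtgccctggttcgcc
SDHD: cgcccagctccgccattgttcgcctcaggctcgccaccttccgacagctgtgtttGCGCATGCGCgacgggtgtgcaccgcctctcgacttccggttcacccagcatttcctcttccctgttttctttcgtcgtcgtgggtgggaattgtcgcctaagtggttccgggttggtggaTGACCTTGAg
ATP5ME: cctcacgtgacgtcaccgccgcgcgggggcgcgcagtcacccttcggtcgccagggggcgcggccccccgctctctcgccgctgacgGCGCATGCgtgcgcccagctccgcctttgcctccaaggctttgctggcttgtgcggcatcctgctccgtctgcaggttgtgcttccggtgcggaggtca
COX5B: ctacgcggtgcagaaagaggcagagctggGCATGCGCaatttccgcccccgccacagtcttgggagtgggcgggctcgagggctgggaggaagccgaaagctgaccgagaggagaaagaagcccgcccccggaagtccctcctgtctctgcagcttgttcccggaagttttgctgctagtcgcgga
NDUFA13: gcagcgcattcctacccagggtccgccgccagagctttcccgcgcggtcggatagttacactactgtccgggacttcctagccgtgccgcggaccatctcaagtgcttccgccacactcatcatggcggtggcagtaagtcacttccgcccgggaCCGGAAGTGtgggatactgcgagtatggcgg

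The motifs were searched on both strands in windows from 250 bases before to 50 bases after each start site, in which 64 of the 79 members and 27305 genes in all had a RefSeq promoter. The ERRE (TNAAGGTCA) was found for 2 members, NDUFB4 and SDHD, which is 3.13% of members against 1.17% of all genes. The NRF1 core (GCGCATGC) was found for 14 members, 21.9% against 3.68%, the YY1 motif (AAGATGGCG) for 8, 12.5% against 2.14%, and the ETS motif (CCGGAAGTG) for 4, 6.25% against 2.81%. A second NRF1 match on the other strand overlaps the first in NDUFB4 and SDHD, and also in ATP5F1C and NDUFA8, which did not pass the test with DES. These are matches of letters in one window, and binding was not measured.

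Sequencing placed 14435925 to 28424805 fragments on genes in each library, with a median of 18314738. Markers matched the cell line: all 9 luminal epithelial markers had a mean of at least 16.2 FPKM, the receptor genes ESR1 and PGR averaged 0.0149 and 0.0382 FPKM, and 10 of 11 markers of other cell types averaged below 1 FPKM, the exception being COL1A1 at 14.8 FPKM (9.34 to 32.7). ESRRB itself was barely detected, with group means of 0.00711 to 0.145 FPKM. In bulk RNA fewer cells of a type and less RNA per cell cannot be told apart.

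The members covered a wide range of levels. ATP5F1B, the catalytic beta subunit of ATP synthase, was the highest at a mean of 496 FPKM over all libraries, followed by COX8A, a small subunit of complex IV, at 342 FPKM and COX6B1, another, at 171 FPKM. Next in complex IV was COX7C at 106 FPKM, and in complex V ATP5PD at 104 FPKM and ATP5F1C at 86.8 FPKM. COX7C, ATP5PD and ATP5F1C did not pass the test with DES described below. In complex III the highest were UQCR10 at 158 FPKM, UQCRH at 143 FPKM and the core protein UQCRC1 at 101 FPKM. In complex I NDUFB7, NDUFB10 and NDUFS5, accessory subunits, were the highest at 145, 130 and 129 FPKM, and NDUFV2, part of the NADH-oxidizing module, was the lowest at 1.44 FPKM. Complex II had the lowest median in FPKM, 22.7 against 25.5 in complex I, the next lowest. Its members ran from 13.1 FPKM for the membrane anchor SDHC to 40.5 FPKM for the iron-sulfur subunit SDHB. The lowest member of all was ATP5S at 1.40 FPKM, a gene named after ATP synthase that encodes an assembly-related factor.

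The tissue-restricted isoforms were nearly silent. COX6A1 averaged 56.7 FPKM while the muscle isoform COX6A2 had a value above 0 in 1 library, and COX7A2 averaged 77.5 FPKM against 0.276 FPKM for the muscle isoform COX7A1. COX4I1 averaged 54.5 FPKM, and its partner COX4I2 did not pass 0.527 FPKM in any library. NDUFA4, counted here in complex I by its name although it is now placed in complex IV, averaged 39.2 FPKM and the hypoxia-linked NDUFA4L2 0.623 FPKM. UQCRHL, a retrocopy of UQCRH, averaged 2.59 FPKM and shares sequence with it, so that its value is uncertain. The other names that matched but stayed below the mean of 1 were COX6B2, COX7B2, COX8C, NDUFA7, ATP5MGL and the read-through genes NDUFC2-KCTD14 and ATP5MF-PTCD1.

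Level depended on how length and overlap were counted. The gene length in the table is the union of all annotated exons and was a median of 2.43 times that of the MANE Select transcript of the member, with a range of 0.936 to 10.8. ATP5F1A, the alpha subunit, which is present in ATP synthase in the same number as the beta subunit, stood at 55.0 FPKM, and at 104 when divided by its MANE length, against 655 for ATP5F1B. Divided by MANE length, the order within complexes also changed. In complex I the core subunit NDUFS8, at 53.2 FPKM, stood at 326, above NDUFB10 at 207 and NDUFB7 at 144. In complex II SDHC, the lowest in FPKM, was the highest at 142. The rankings above thus hold only for the deposited gene lengths. Of the members, 8 shared at least 50% of their MANE bases with another annotated gene (NDUFS7, NDUFA11, NDUFB8, NDUFA13, NDUFV2, SDHA, ATP5PO and ATP5S), and since reads on shared bases may not have been counted their levels are uncertain.

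With DES members changed past the test. With DES alone, 20 of the 79 members rose and 0 fell in limma at an adjusted p under 0.05, and 72 were fitted higher, with a median log2 fold change of 0.61 against 0.047 over the 14686 genes tested. By complex, 9 of 36 members of complex I, 1 of 4 of complex II, 2 of 9 of complex III, 3 of 11 of complex IV and 5 of 19 of complex V rose. These counts are small, and no complex was tested as a set. The share of members that rose was 25.3%, against 16.7% of all genes, while 12.9% of all genes fell and 29.6% were called in all. The larger share among members depended on the fit: 11.4% of members against 14.1% of all genes rose with quantile normalization, and 2.53% against 2.72% with no filter on low values, while it was 34.2% (27 members) against 16.5% in limma-voom on fragments and 28.9% (22 members) against 18.7% with a mean of at least 2 FPKM. In 45 members (57%) every DES library lay above every control library, compared with 25.9% of all genes, and in 1 member every DES library lay below, compared with 22.9%.

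The count depended on single libraries. Without DES replicate 3 it was 44 (55.7% of members, where 15.97% of all genes rose), and without DES replicate 2 it was 7 (8.86% against 9.46%). Without control replicate 1, 2 or 3 it was 2, 2 and 6, which is 2.53%, 2.53% and 7.59% of members against 8.65%, 9.23% and 12.2% of all genes, so that the members' share lay below that of all genes. Without DES replicate 1, 21 members rose and 1 fell, 27.8% in all, where 34.6% of all genes were called and 19.6% rose. In the other fits with a library left out all member calls were higher with DES. DES replicate 3 was the library with the smallest shift: the FPKM of all members summed to 6927, 4836 and 3929 in DES replicates 1, 2 and 3, against 3277, 3303 and 3205 in the controls, so that the groups did not overlap but 1 DES library came close.

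**Figure D1:**
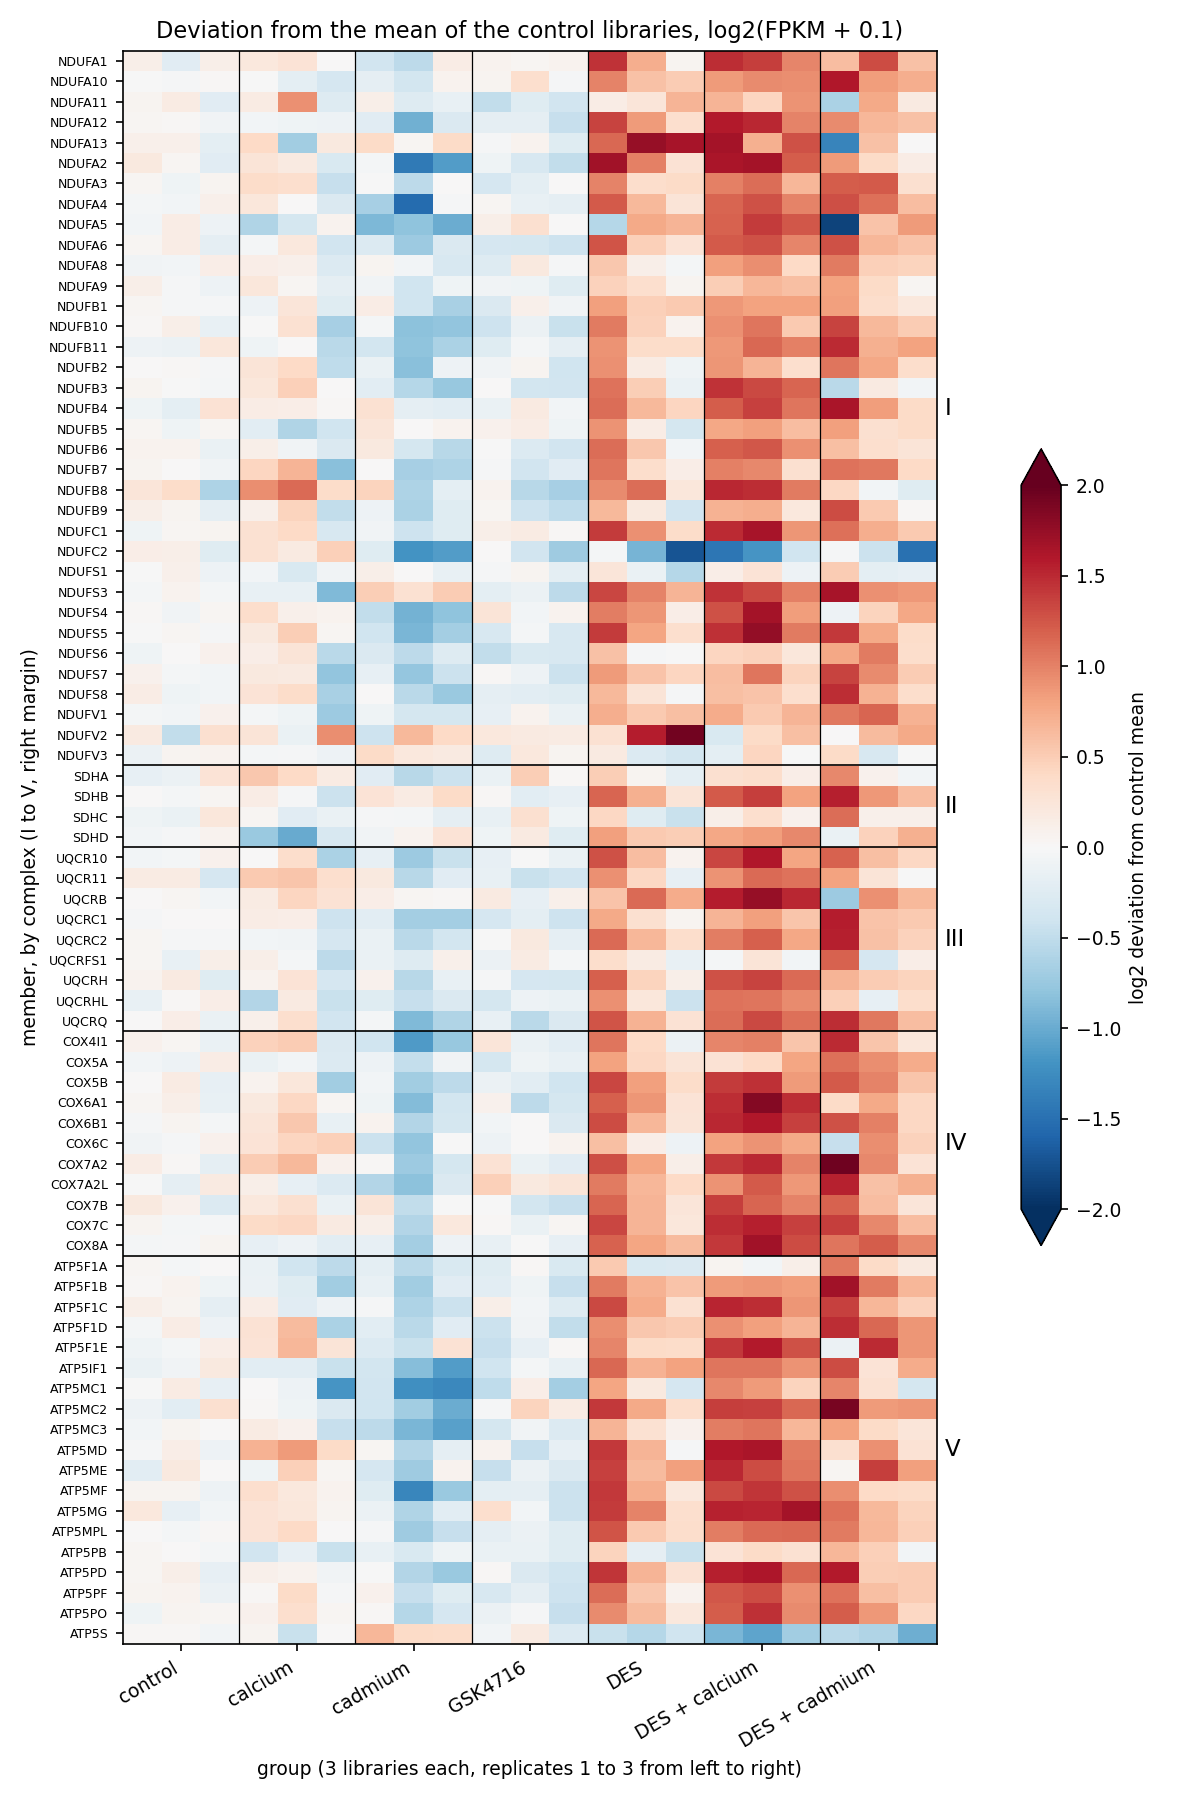
Each row is a member, grouped by complex (1 member of complex I is not drawn), and each column a library. Color gives the deviation of log2(FPKM + 0.1) from the mean of the 3 control libraries, cut at 2 and -2. The columns of the 3 DES-treated groups are mostly red, DES replicate 3 is paler than replicates 1 and 2, and the cadmium columns are mostly blue.

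In complex I, the largest rise was that of NDUFA13, an accessory subunit also known as GRIM-19. It measured 1.41, 1.40 and 1.12 FPKM in the controls and 3.02, 4.57 and 4.28 FPKM with DES, a log2 fold change of 1.51 ± 0.24 (SE, limma adjusted p = 0.00578). Every DES library was above the highest control. Its level was low, with 50 to 123 fragments in a control library, and 83.9% of its MANE bases lie in another annotated gene. NDUFS3, a core subunit of the arm that faces the matrix, measured 16.5, 17.9 and 16.5 FPKM in the controls and 43.0, 33.9 and 27.3 FPKM with DES (log2 fold change 1.01 ± 0.19, limma adjusted p = 0.00951). NDUFS3 and NDUFA13 were the members that stayed called when any single library was left out. NDUFC1, a small membrane subunit, went from 19.1, 20.97 and 21.1 FPKM to 53.8, 38.5 and 26.3 FPKM (0.89 ± 0.26, limma adjusted p = 0.0390).

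NDUFV1, which carries the flavin that oxidizes NADH, measured 44.8, 44.05 and 48.7 FPKM in the controls and 75.4, 65.6 and 69.6 FPKM with DES (0.61 ± 0.14, limma adjusted p = 0.0176). NDUFB4, whose promoter holds the ERRE, rose by 0.73 ± 0.23 (limma adjusted p = 0.0499), near the threshold. The other complex I members that rose were NDUFA12 (0.84), NDUFA10 (0.70), NDUFS7 (0.61) and NDUFB1 (0.60). NDUFS1, the largest core subunit, did not pass the test. It measured 11.7, 12.6 and 10.96 FPKM in the controls and 13.9, 10.6 and 7.82 FPKM with DES, and the groups overlapped.

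In complex II the member that rose was SDHD, a membrane anchor. It measured 15.9, 16.2 and 17.3 FPKM in the controls and 29.2, 23.7 and 23.2 FPKM with DES, with no overlap (0.61 ± 0.15, limma adjusted p = 0.0227). SDHB measured 28.2, 27.1 and 28.8 FPKM against 62.9, 46.1 and 33.5 FPKM and did not pass (limma adjusted p = 0.0566). SDHA, the flavoprotein, overlapped between the groups, at 20.6, 21.3 and 27.9 FPKM in the controls and 32.2, 23.8 and 20.02 FPKM with DES.

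In complex III the ubiquinone-binding subunit UQCRB measured 10.4, 10.6 and 10.0 FPKM in the controls and 15.4, 22.7 and 17.3 FPKM with DES (0.81 ± 0.18, limma adjusted p = 0.0157). UQCRC2, a core protein, went from 43.7, 41.5 and 41.8 FPKM to 93.3, 67.2 and 54.1 FPKM (0.72 ± 0.21, limma adjusted p = 0.0427). The control values of both were close together and the DES values were spread. UQCRFS1, the Rieske iron-sulfur protein, overlapped, at 37.1, 32.4 and 39.2 FPKM against 46.4, 40.3 and 32.6 FPKM.

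In complex IV COX8A measured 224, 227 and 241 FPKM in the controls and 522, 398 and 358 FPKM with DES (0.87 ± 0.21, limma adjusted p = 0.0232). COX5B, a zinc-binding subunit, went from 64.3, 71.7 and 56.9 FPKM to 161, 113 and 82.2 FPKM (0.84 ± 0.26, limma adjusted p = 0.0483). COX7A2L, a factor that joins complexes III and IV into supercomplexes, rose by 0.70 ± 0.20 (limma adjusted p = 0.0373). All 11 complex IV members were fitted higher, with a median of 0.73. COX4I1, the largest nuclear subunit, did not pass, at 45.7, 44.2 and 39.2 FPKM in the controls and 90.7, 56.4 and 39.5 FPKM with DES, where replicate 3 lay within the controls.

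In complex V the largest rises were in small membrane subunits. ATP5ME measured 6.98, 9.32 and 8.18 FPKM in the controls and 21.2, 12.6 and 14.3 FPKM with DES (0.94 ± 0.23, limma adjusted p = 0.0227), and ATP5MG 12.9, 9.95 and 10.8 FPKM against 29.5, 22.4 and 14.2 FPKM (0.91 ± 0.27, limma adjusted p = 0.0445). ATP5IF1, the inhibitor that holds back ATP hydrolysis, went from 47.7, 49.95 and 60.2 FPKM to 116, 84.4 and 91.6 FPKM (0.88 ± 0.18, limma adjusted p = 0.0133). In these 3 genes every DES library was above every control. ATP5F1B went from 383, 393 and 352 FPKM to 771, 608 and 558 FPKM (0.77 ± 0.22, limma adjusted p = 0.0407), and the delta subunit ATP5F1D rose by 0.66 ± 0.17 (limma adjusted p = 0.0279). The alpha subunit ATP5F1A did not share this pattern of values, with 56.4, 53.1 and 55.0 FPKM in the controls and 79.2, 44.3 and 45.0 FPKM with DES (log2 fold change -0.02). ATP5S was the member whose DES libraries were all below the controls, at 1.14, 1.04 and 1.19 FPKM against 1.63, 1.63 and 1.54 FPKM, without passing the test (limma adjusted p = 0.152).

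**Figure D2:**
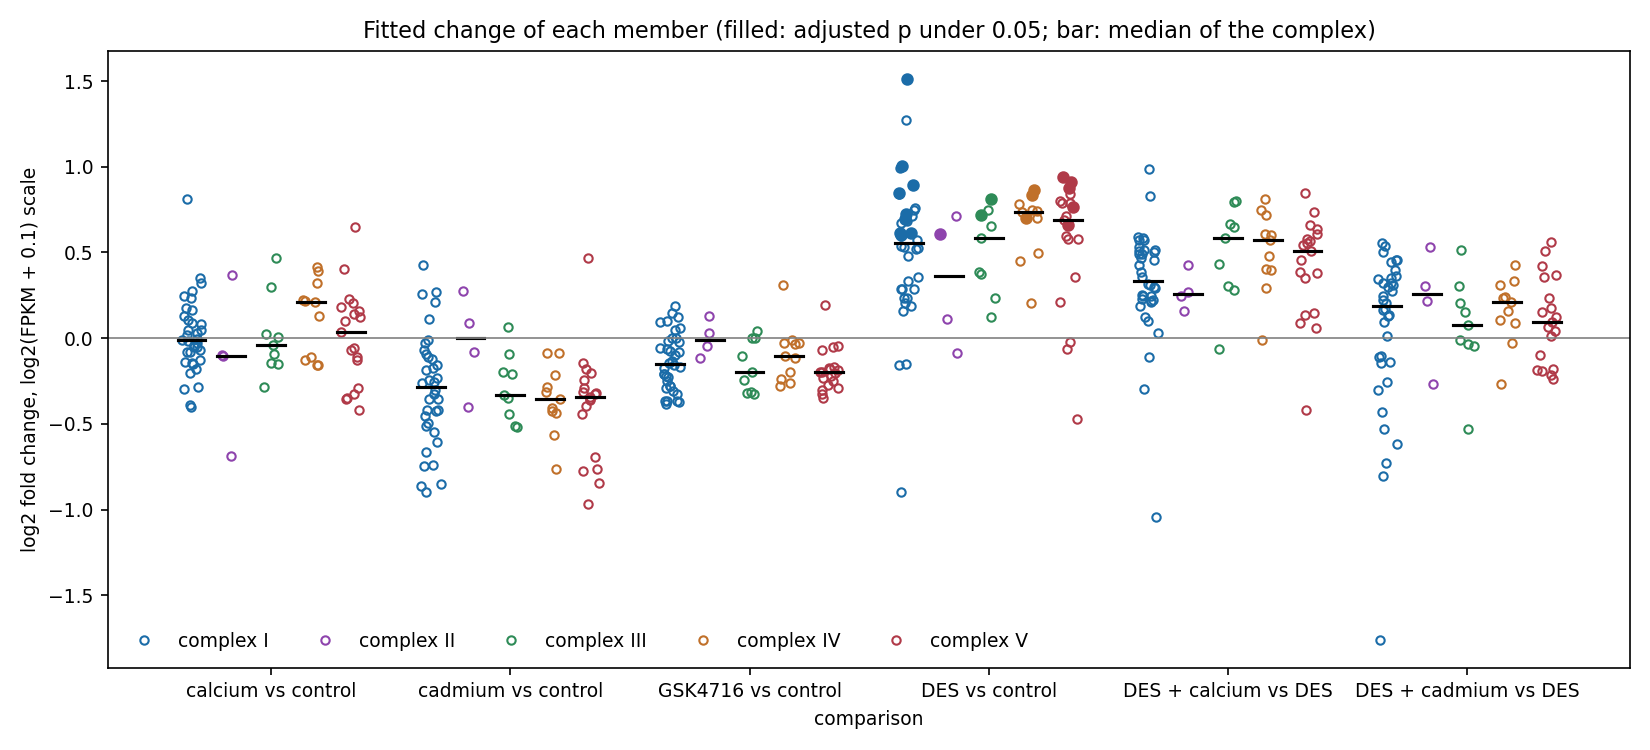
Each point is the fitted log2 fold change of a member on the log2(FPKM + 0.1) scale, by comparison on the x axis and by complex in color, with filled points for an adjusted p under 0.05 and black bars for the median of the complex. Filled points stand only in the DES against control column, all above 0, where the medians of the complexes lie between 0.36 and 0.73.

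Gene length moved with the DES result. Among the other protein-coding genes, the median log2 fold change with DES fell with length, from 0.79 in 153 genes under 1000 bases to 0.50 in 809 genes of 1000 to under 2000 bases, 0.22 in 2962 genes of 2000 to under 4000 bases and -0.16 in 6987 genes of 4000 bases or more. The members in the same bins had medians of 0.74 (9 genes), 0.73 (19), 0.66 (29) and 0.31 (22). By median the members thus lay slightly below other genes in the shortest bin, and above them in the longer bins. The share called higher was smaller among members than among other genes under 1000 bases (22.2% against 39.9%). It was also smaller at 1000 to under 2000 bases (21.1% against 30.04%). It was larger at 2000 to under 4000 bases (27.6% against 20.4%) and at 4000 bases or more (27.3% against 9.62%). Across the 79 members the log2 fold change and the log2 length had a Pearson r of -0.40 and a Spearman rho of -0.38, a description over genes that share the same libraries. After each library's trend with length was removed, an alternative added after seeing the data, 9 members were called against the 20 above, and the median was 0.37 against 0.016 over all genes. These 9 are 11.4% of members, where 14.2% of all genes rose, so that with the trend removed members were not called more often than other genes. The sum of FPKM likewise weighs short genes more than fragments do: the members took 0.858 to 0.911% of the fragments in the controls and 0.965 to 1.40% with DES. The part of length in the result was not tested beyond these values.

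**Figure D3:**
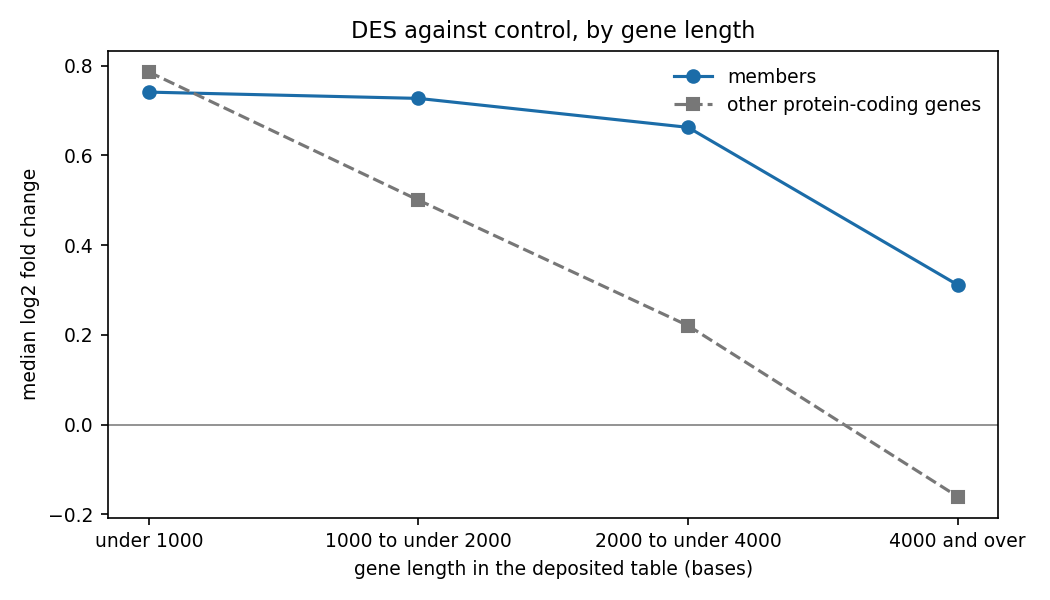
Median log2 fold change of DES against control (y axis) by gene length in bases (x axis), for members (blue circles) and other protein-coding genes (grey squares). Both lines fall with length, and they come closest in the shortest bin, at 0.74 and 0.79.

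Scaling shifted all genes together. When the values were scaled by total fragments on genes, the median over all genes moved from 0.047 to -0.12 and the calls over all genes from 2447 higher and 1893 lower to 1861 higher and 2538 lower. The members relative to all genes stayed at a median of 0.56 in both, with 14 called in place of 20 (17.7% of members, where 12.7% of all genes rose). With quantile normalization the calls over all genes were 2075 higher and 2543 lower, and the members stood 0.39 above the median of all genes, with 9 called. The direction of the members' median was the same under each scaling.

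Summed by complex, levels with DES exceeded the controls in each library for complexes I, III, IV and V. Complex I summed to 1058, 1044 and 1050 FPKM in the controls and 2149, 1481 and 1195 FPKM with DES. Complex IV summed to 709, 714 and 694 FPKM against 1616, 1149 and 906 FPKM. Complex II overlapped, with 76.2, 75.8 and 88.3 FPKM in the controls and 141, 104 and 85.7 FPKM with DES. These sums are a description and were not tested.

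**Figure D4:**
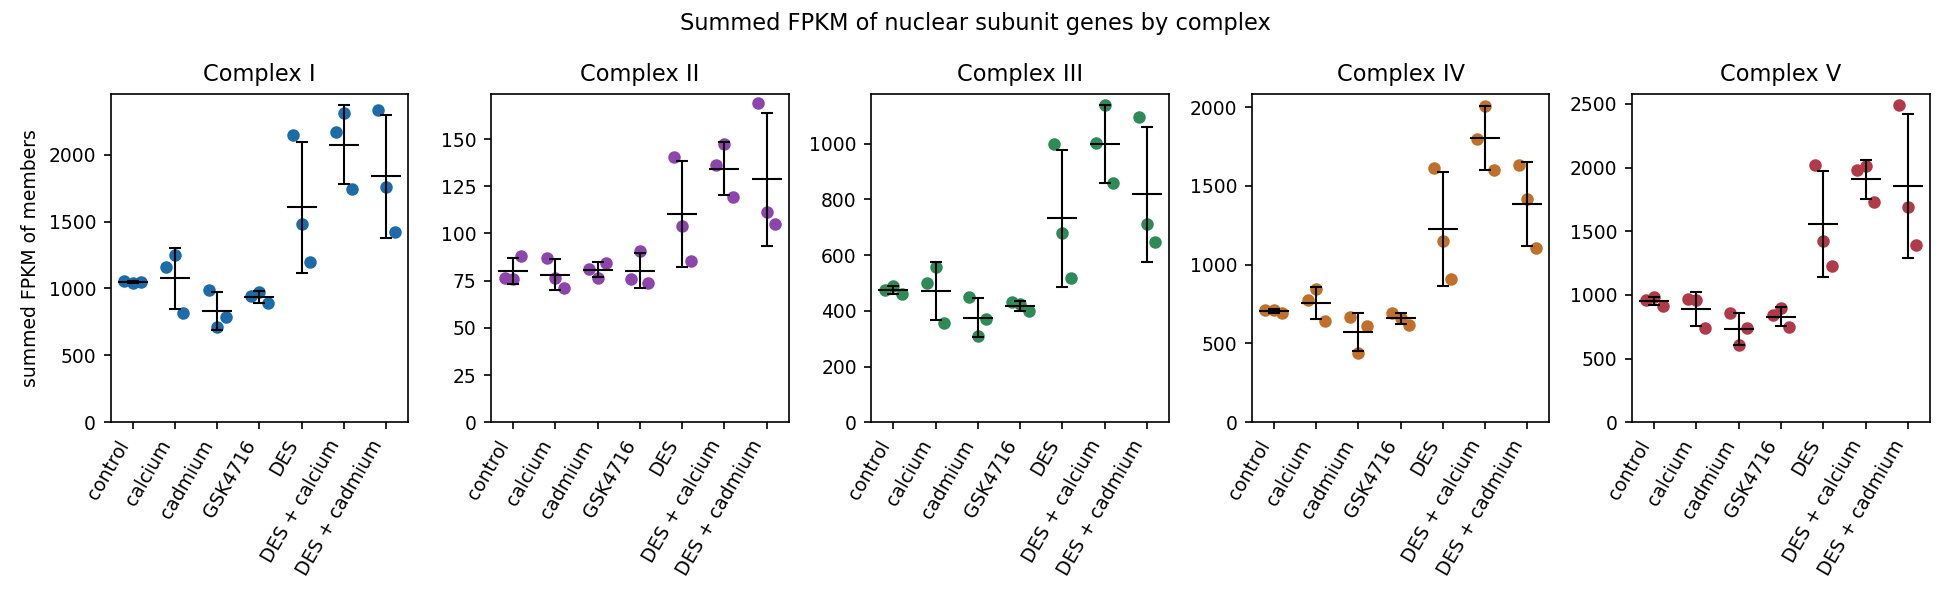
Summed FPKM of the members of each complex (y axis) per library (points, replicates 1 to 3 from left to right) in the 7 groups (x axis), with the mean and SD as black bars (n = 3). The control points lie close together, the DES groups lie higher and spread widely, and cadmium replicate 2 is the lowest library in complexes I, III, IV and V.

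The mitochondrially encoded subunits went the other way with DES. Their 13 genes summed to 66261, 64547 and 58688 FPKM in the controls and 28872, 18107 and 18125 FPKM with DES, and these genes took 6.49 to 7.14% of fragments in the controls and 1.78 to 2.51% with DES. All 13 were fitted lower (11 of 13 with quantile normalization), 6 fell in limma and 0 rose, and 10 fell when scaled by total fragments and 10 with the length trend removed, where 12.9%, 17.3% and 12.8% of all genes fell. MT-CO2, the copper-binding subunit of complex IV, went from 10456, 10206 and 9313 FPKM to 2794, 1621 and 1176 FPKM (-2.51 ± 0.49, limma adjusted p = 0.0106). MT-ND1, a membrane subunit of complex I, went from 2854, 2848 and 2687 FPKM to 674, 516 and 708 FPKM (-2.16 ± 0.29, limma adjusted p = 0.00330). MT-CO3, MT-ND6, MT-CYB and MT-ND5 also fell. The ratio of mitochondrially encoded to nuclear summed FPKM was 18.3 to 20.2 in the controls and 3.74 to 4.61 with DES. Libraries were made from poly(A)-selected RNA. The mitochondrial rRNAs, which such libraries hold only in part, took 0.795 to 1.39% of fragments in the controls, 1.69 to 2.45% with DES and 1.81 to 2.59% with DES and calcium, opposite to the mitochondrial mRNAs. With DES and cadmium the rRNAs took 1.18 to 1.74%, overlapping the controls, while the mRNAs took 0.783 to 3.56%, and with cadmium alone the rRNAs took 1.41 to 2.01%, above the controls, while the mRNAs took 5.89 to 7.92%, overlapping them. The part of capture or RNA quality in the fall was not tested.

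**Figure D5:**
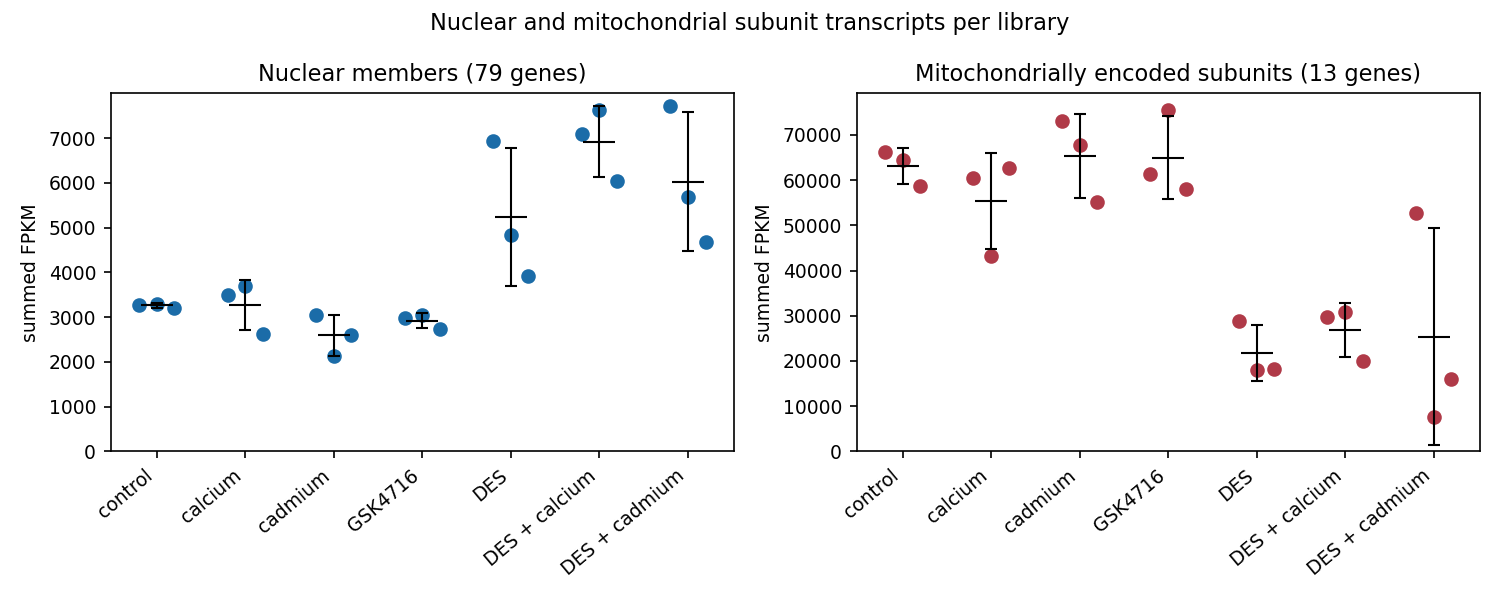
Summed FPKM (y axis) of the 79 nuclear members (left) and of the 13 mitochondrially encoded subunits (right) per library (points) by group (x axis), with mean and SD (n = 3). In the DES groups the nuclear sums lie above the controls and the mitochondrial sums below.

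Other genes of the organelle were taken from lists. Of 77 mitochondrial ribosome genes, 29 rose and 2 fell with DES (37.7% higher, against 16.7% of all genes), the largest rises being MRPS30 (1.48), MRPL14 (1.31) and MRPL9 (1.28). Of 51 assembly factor genes 8 rose and 4 fell, and the 15.7% that rose is near the share over all genes. NDUFAF5, a complex I assembly factor, rose from 2.88, 2.52 and 2.52 FPKM to 5.82, 8.63 and 8.41 FPKM (1.48, limma adjusted p = 0.00397), COA6, a complex IV copper factor, rose by 1.16, and LYRM7, which helps insert the Rieske protein into complex III, fell by 1.33. Of 18 genes of the citric acid cycle and its entry 4 rose (22.2%) and 0 fell, with IDH3G, an isocitrate dehydrogenase subunit, at 1.03. Of 17 regulators of mitochondrial biogenesis that could be tested 0 rose and 2 fell (11.8%, against 12.9% of all genes): ESRRA, the estrogen-related receptor alpha, measured 21.6, 23.3 and 31.2 FPKM in the controls and 16.7, 10.4 and 15.9 FPKM with DES (-0.83, limma adjusted p = 0.0370), and CREB1 fell by 0.77. NRF1 (-0.50), PPARGC1B (-0.91) and TFAM (-0.06) did not pass. ESRRB, ESRRG and PPARGC1A averaged under 1 FPKM in each DES group and in the controls. Scaled by total fragments, 23 of the ribosome genes rose and 3 fell, 6 of the assembly genes rose and 4 fell, 3 of the citric acid cycle genes rose and 1 fell, and 5 of the regulators fell, where 12.7% of all genes rose and 17.3% fell, with the median of the citric acid cycle genes at 0.03 in place of 0.20. With the length trend removed, 18 of the ribosome genes rose and 2 fell, with a median of 0.29 in place of 0.47, and 4 of the assembly genes rose and 4 fell, where 14.2% of all genes rose and 12.8% fell.

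In cells treated with cadmium, most members lay below the controls without passing the test. In limma 0 members were called, where 0.15% of all genes were, with 22 at an unadjusted p under 0.05 (19 lower, 3 higher), which is 27.8% against 25.9% of all genes (1818 lower, 1990 higher), and limma-voom on fragments called 1 (1.27%), against 3.15% of all genes. The fitted value was lower in 70 of the 79 members, with a median log2 fold change of -0.32 against 0.041 over all genes, but -0.17 without cadmium replicate 2. With arrayWeights, which weighs libraries by their spread, the median was -0.57 and 69 members (87.3%) were called, against 56.7% of all genes, in a fit that did not converge and gave control replicate 1 and cadmium replicate 2 weights of 7.41 and 4.98, with the other 4 libraries between 0.200 and 0.903. In 28 members (35.4%) every cadmium library lay below every control, compared with 16.7% of all genes, and in 4 every library lay above, compared with 17.7%. Without cadmium replicate 1, 17 members (21.5%) were called, all lower, and of all genes 10.9% were called, 5.43% higher and 5.50% lower. The sums over all members were 3044, 2141 and 2593 FPKM in cadmium replicates 1, 2 and 3, all below the lowest control of 3205 FPKM.

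The smallest p-values with cadmium were those of NDUFA5, ATP5MC3 and NDUFS4. NDUFA5, an accessory subunit of complex I, measured 4.02, 4.61 and 3.89 FPKM in the controls and 2.20, 2.35 and 2.03 FPKM with cadmium (-0.90 ± 0.17, limma adjusted p = 0.0644). ATP5MC3, which encodes the membrane ring subunit c, measured 21.5, 23.1 and 22.4 FPKM against 15.5, 11.8 and 10.4 FPKM (-0.84 ± 0.17, limma adjusted p = 0.0700). NDUFS4, another accessory subunit, measured 19.3, 17.99 and 19.5 FPKM against 13.5, 9.82 and 10.8 FPKM (-0.74 ± 0.15, limma adjusted p = 0.0712). In all 3 the groups did not overlap. NDUFS3 was an exception to the direction, at 23.8, 20.9 and 24.1 FPKM with cadmium, above its controls, and SDHB was another, at 34.0, 31.5 and 36.4 FPKM, again without passing the test. The mitochondrially encoded genes summed to 55072 to 73057 FPKM with cadmium, overlapping the controls, and 0 were called.

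With GSK4716 most members were fitted lower than the controls, again without passing the test. In limma 0 members were called, as were 0.0% of all genes, 9 members (11.4%) were at an unadjusted p under 0.05, all lower, against 16.4% of all genes, and limma-voom on fragments called 0 members and 86 genes in all. The fitted value was lower in 65 members, with a median of -0.17 against 0.000 over all genes, but -0.11 without GSK4716 replicate 3. In 14 members (17.7%) every GSK4716 library lay below every control, compared with 11.5% of all genes, and in 1 (1.27%) every library lay above, compared with 10.7%. The members with the smallest p were NDUFS6 at 20.9, 23.7 and 23.5 FPKM against 27.5, 29.6 and 30.9 FPKM in the controls (-0.37, limma adjusted p = 0.181), UQCRC1 (-0.32, limma adjusted p = 0.201) and NDUFA6 (-0.37, limma adjusted p = 0.201).

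With calcium members lay on both sides of the controls. In limma 0 were called, against 7.12% of all genes, with 11 at an unadjusted p under 0.05 (7 higher, 4 lower) and 0 in limma-voom on fragments, which called 10.6% of all genes. Those 11 are 13.9% of members, a smaller share than the 23.5% of all genes. Without calcium replicate 3, 2 members (2.53%) were called, against 5.16% of all genes. The fitted value was higher in 38 and lower in 41 members, and the median was -0.01, as it was over all genes, but 0.15 without calcium replicate 3. In 9 members (11.4%) every calcium library lay above the controls and in 9 every library lay below, compared with 16.0% and 13.6% of all genes. ATP5MD, a small membrane subunit of ATP synthase, measured 91.9, 102 and 74.0 FPKM against 55.7, 61.7 and 52.3 FPKM in the controls (0.65 ± 0.15, limma adjusted p = 0.0602), and COX6C 33.1, 37.1 and 38.1 FPKM against 26.3, 26.9 and 29.2 FPKM (0.39 ± 0.11, limma adjusted p = 0.0838). SDHD, which rose with DES, measured 9.85, 8.18 and 13.2 FPKM with calcium, below its controls (-0.69 ± 0.19, limma adjusted p = 0.0865).

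Adding calcium to DES was compared with DES alone, which shares the DES libraries with the comparisons above. In limma 0 members were called, against 0.136% of all genes, with 13 (16.5%) at an unadjusted p under 0.05, all higher, against 13.2% of all genes, and 0 in limma-voom on fragments. The fitted value was higher in 73 members, with a median of 0.43 against 0.0012 over all genes, but 0.20 without DES replicate 3 and 0.66 without DES replicate 1. In 13 members (16.5%) every library of DES with calcium lay above every DES library, compared with 7.84% of all genes, and in 1 every library lay below, compared with 12.1%. UQCRB measured 30.9, 34.7 and 29.6 FPKM against 15.4, 22.7 and 17.3 FPKM with DES (0.79 ± 0.18, limma adjusted p = 0.198), and ATP5F1E, the epsilon subunit of ATP synthase, 51.5, 57.7 and 46.6 FPKM against 38.0, 25.1 and 24.9 FPKM (0.85 ± 0.20, limma adjusted p = 0.216). COX6A1 measured 111, 142 and 110 FPKM against 90.8, 72.9 and 47.6 FPKM (0.81 ± 0.26, limma adjusted p = 0.296). In these genes the groups did not overlap. Summed over the members, DES with calcium gave 7089, 7618 and 6049 FPKM, and replicate 3 of these lay below DES replicate 1 at 6927 FPKM. Taken in pairs by replicate number, a pairing that the labels do not give, the FPKM sum was higher than with DES in all 3 pairs. The share of fragments was higher in pairs 2 and 3 and not in pair 1 (1.39% against 1.40%). In 41 members (51.9%) the FPKM was higher in every pair and in 2 lower in every pair, compared with 20.2% and 21.6% of all genes. By share of fragments it was 39 members (49.4%) and 3, compared with 13.4% and 28.1%.

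Adding cadmium to DES gave a median of 0.16 against -0.04 over all genes, with 54 members fitted higher and 25 lower. This direction turned with the scaling and with single libraries: 32 were fitted higher and 47 lower when scaled by total fragments (median -0.06, against -0.24 over all genes), 35 and 44 without DES replicate 3 (median -0.02), and 34 and 45 without DES with cadmium replicate 1 (median -0.03). In limma 0 members were called, against 0.266% of all genes, with 1 (1.27%) at an unadjusted p under 0.05, against 10.4% of all genes, and 0 in limma-voom on fragments. In 0 members did every library lie above the DES libraries and in 1 did every library lie below, compared with 5.38% and 10.9% of all genes. That member was NDUFA13, at 0.459, 2.00 and 1.30 FPKM against 3.02, 4.57 and 4.28 FPKM with DES (-1.76 ± 0.53, limma adjusted p = 0.304), from 20 to 75 fragments in a library. The libraries of DES with cadmium differed among themselves. ATP5F1B, for example, measured 1203, 771 and 596 FPKM in replicates 1, 2 and 3, each above the DES library of the same number at 771, 608 and 558 FPKM. The members summed to 7718, 5686 and 4673 FPKM, above the DES library of each pair (6927, 4836 and 3929 FPKM). As a share of fragments pair 1 went the other way, at 1.30% against 1.40% with DES, and the library size behind the FPKM of DES with cadmium replicate 1 was 0.693 times its fragments on genes, against 0.908 times in DES replicate 1. In 31 members (39.2%) the FPKM was higher in every pair and in 6 (7.59%) lower in every pair, compared with 19.4% and 22.0% of all genes. By share of fragments 12 members (15.2%) were higher and 21 (26.6%) lower in every pair, compared with 9.37% and 33.2%. The fit with the pairs as a block called 0 members and 0 genes in all for either metal. The mitochondrially encoded genes summed to 52773, 7513 and 15927 FPKM. NDUFB8 (-0.73, limma adjusted p = 0.501) and ATP5F1D (0.51, limma adjusted p = 0.544) had the next smallest p.

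Whether a metal acted differently in the presence of DES was tested as an interaction. For calcium 0 members were called, against 3.63% of all genes, with 9 (11.4%) at an unadjusted p under 0.05, against 19.9% of all genes, and 0 in limma-voom on fragments (4.32% of all genes), and the median was 0.40 against -0.02, but 0.20 without DES replicate 3 and 0.61 without DES replicate 1. SDHD had the smallest p (0.93 ± 0.25, limma adjusted p = 0.0624), followed by COX8A (0.76, limma adjusted p = 0.124) and NDUFA5 (1.28, limma adjusted p = 0.134). Without DES replicate 1, 4 members (5.06%) were called, against 5.65% of all genes, and without calcium replicate 3, 1 was (1.27% against 3.75%). For cadmium 0 members were called, against 1.18% of all genes, with 12 (15.2%) at an unadjusted p under 0.05, against 18.5% of all genes, and 0 in limma-voom on fragments (0.783% of all genes), and the median was 0.51 against -0.09, but 0.26 without DES replicate 3 and 0.30 without DES with cadmium replicate 1. NDUFA13 (-2.03, limma adjusted p = 0.104), ATP5MC3 (0.97, limma adjusted p = 0.136) and NDUFB11 (1.06, limma adjusted p = 0.142) had the smallest p. Without DES with cadmium replicate 2, 1 member (1.27%) was called, against 2.79% of all genes. Of the 51 assembly factors 2 (3.92%) passed for calcium, LRPPRC (0.99) and LYRM7 (1.98), a share near the 3.63% of all genes. For cadmium 2 (3.92%) passed, COA6 (-1.57) and TMEM70 (-1.15), against 1.18% of all genes.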

How the data were processed

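Libraries were poly(A)-selected and sequenced in pairs of 150 bases, and per the labels aligned with HISAT2 (2.0.5) to GRCh38.p14 and counted with featureCounts (1.5.0-p3). Strandedness and annotation release are not given in the sources used here. The deposited values are FPKM, which the authors computed per gene. They came out as whole fragments for 100% of values (tolerance 0.01). The library size behind the FPKM was 0.693 to 1.15 times the fragments on genes.

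Genes with a mean of at least 0.5 FPKM (14686, all 79 members included) were fitted as log2(FPKM + 0.1) with limma (3.58.1, R 4.3.3), with Benjamini-Hochberg adjustment at 0.05 over all of them. Fold changes are on that scale and understate those of low genes. Each comparison used its own groups. Members, lists and motifs were chosen with earlier results of these data known. Named were the 3 highest members and the lowest of each complex, core subunits, tissue isoforms, up to 5 called members per comparison and direction, or else the 3 smallest p, and up to 3 of each other list. Other called members were named after their values were seen. The values of 1 core subunit of complex I are not reported here, although it is counted among the members. Figures used matplotlib (3.10.9). The script was tested on simulated data. Same-numbered libraries of DES with calcium and DES had correlations of deviations of 0.132, 0.103 and 0.280. For DES with cadmium and DES they were 0.472, 0.121 and 0.313. All passed 0.1, and these libraries were compared as pairs, although the labels give no pairing. GSK4716 and control gave 0.123, -0.020 and 0.179. Differently numbered libraries were not correlated, so whether the numbers pair libraries was not tested.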

Additional observations from a re-analysis of the deposited data

How the results depend on the processing

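For DES against control, the 20 members called became 2 with no filter on low values (45127 genes tested), 9 with quantile normalization, 9 with the length trend removed, 32 with all 7 groups in one fit, 61 with arrayWeights (58 higher, 3 lower), and 2 to 44 when a library was left out. Of all genes 4.67%, 31.4%, 27.1%, 27.6% and 70.4% were called in the first 5 of these fits, against 2.53%, 11.4%, 11.4%, 40.5% and 77.2% of members. For DES, arrayWeights gave control replicate 1 and DES replicate 2 weights of 8.57 and 4.99. The other libraries had weights between 0.170 and 0.854, so that fit rested mostly on a single library in each group. With the replicate block 9 were called (11.4%, where 12.7% of all genes rose), 6 of them among the 20. Same-numbered DES and control libraries had correlations of deviations of -0.028, 0.028 and -0.079. In the comparisons of DES with a metal against DES, the replicate block changed no call of a member, at 0, and over all genes the 20 and 39 calls became 0. The other counts, 0 members each, became with arrayWeights 5 for calcium, 69 for cadmium, 2 for GSK4716, 3 for DES with calcium, 2 for DES with cadmium, 13 for the calcium interaction and 36 for the cadmium interaction. These are 6.33%, 87.3%, 2.53%, 3.80%, 2.53%, 16.5% and 45.6% of members, against 15.5%, 56.7%, 5.76%, 4.89%, 13.5%, 17.9% and 43.3% of all genes. The arrayWeights fit did not converge in 2 comparisons, cadmium against control and the cadmium interaction. With all 7 groups in one fit 1 member (1.27%) was called for cadmium, for DES with cadmium and for the cadmium interaction, against 6.99%, 4.11% and 5.46% of all genes. For calcium 1 was called with a mean of at least 2 FPKM, with quantile normalization and with the length trend removed, and for the calcium interaction 1 with quantile normalization, where 11.5%, 9.61%, 8.56% and 4.43% of all genes were called. Limma-voom called 1 for cadmium. Leaving out a library gave 0 to 2 for calcium, 0 to 17 for cadmium, 0 to 4 and 0 to 1 for the interactions, and 0 otherwise. With arrayWeights the median for cadmium was -0.57 in place of -0.32. The other medians moved by less than the larger SD, over the 3 libraries of any group compared, of the members' median deviation from the controls. For DES that SD was wide, at 0.39. The median for DES was 0.29 with quantile normalization in place of 0.61, which falls within it. Left-out libraries gave 0.44 to 0.79 for DES, -0.42 to -0.17 for cadmium, -0.18 to -0.11 for GSK4716, -0.08 to 0.15 for calcium, 0.20 to 0.66 for DES with calcium, -0.03 to 0.38 for DES with cadmium, 0.20 to 0.61 for the calcium interaction and 0.26 to 0.70 for the cadmium interaction. With DES and cadmium the median was -0.06 when scaled by total fragments, and it lay 0.09 below that of all genes with quantile normalization. The cause of these differences was not tested. With 3 libraries a group, small changes of single members could not be told from the spread between libraries, and intervals from fragments were not used.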
